A study of Mus musculus with 41 samples.

Results

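CD8 T cells of the mouse small intestine were picked out of a single-cell atlas by their own transcripts and described in mice with food allergy and in control mice. A cell counted as a CD8 T cell when it held at least 2 unique molecular identifiers (UMIs, 1 for each captured RNA molecule) over Cd3d, Cd3e and Trac, at least 1 UMI of Cd8b1, and none of Cd4, Foxp3 and Cd79a. This rule found 2473 cells among 58067 (4.26%), of which 2404 lay in Peyer's patches and 69 in the lamina propria. The food allergy group were female BALB/cJ mice, 10 weeks old, in which an inflammatory reaction to ovalbumin had been induced, and the control group were female BALB/cJ mice of the same age labelled wild type. Peyer's patches gave 9 food allergy and 10 control libraries with cells, spread over 5 run dates, numbered 1 to 5 here, and on run dates 1 and 2 they carried a position letter (D, I or J) that the labels do not explain. The lamina propria gave 4 food allergy and 4 control libraries, 3 of each from a sort labelled nonTB and 1 of each from a sort labelled IgDLow, all on run dates 6 and 7. The labels do not say whether libraries of a run date came from separate mice, so p-values measure only the spread between the sums compared, which may be technical.

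CD8 T cells recognise peptides on class I MHC molecules through a receptor joined to CD3 and to a CD8 dimer, which is made of the products of Cd8a and Cd8b1. Naive CD8 T cells recirculate through lymphoid tissue with the help of homing receptors such as that encoded by Ccr7 and live on IL-7, whereas effector cells carry granzymes, perforin and chemokines such as CCL5. Peyer's patches are lymphoid follicles of the gut wall that naive T cells enter from the blood. The lamina propria beneath the epithelium holds mostly antigen-experienced T cells.

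The chosen cells were deep enough for single-gene statements, with a median of 3384 UMIs per cell and a range of 549 to 19407, and 11 cells held under 1000 UMIs. A doublet caller marked 28 of them, and 1 cell barcode was shared between libraries. T cells, taken as all cells with the CD3 and Trac condition and no Cd79a, were 36.7% to 83.5% of the cells of a run date and condition on run dates 1 to 3 but 3.09% to 6.40% on run dates 4 and 5, and no sort is named for either set. Of the 2404 Peyer's patch cells, 2353 therefore came from run dates 1 to 3 and 51 from run dates 4 and 5. On run date 1 cells of position D were present for controls only.

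Cd8a, which the rule did not use, was found in 68.4% of the Peyer's patch CD8 T cells, at 471 CPM (UMIs of the gene scaled to a fixed total of their sum). B cells, chosen by Cd79a without CD3 transcripts, had Cd8a in 2.6% of cells at 8.8 CPM, with median depths of 3405 UMIs for CD8 T cells and 3753 for B cells. Dapl1, a marker of naive CD8 T cells, was found in 50.2% of the CD8 T cells at 454 CPM, in 26.8% of CD4 T cells at 220 CPM and in 1.6% of B cells at 3.0 CPM. The CD4 T cells were picked by the mirrored rule, 2832 in Peyer's patches with a median of 3084 UMIs. Both markers thus stood well above their level in B cells, and the name of the cells was kept.

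The cells just inside and just outside the rule were not alike. Among T cells with exactly 1 UMI of Cd8b1, 544 in number, 12.3% held Ccl5, 6.62% held the delta receptor constant gene Trdc and 32.4% held Dapl1. Cd8a was found in 32.7% of these 544 cells and Nkg7 in 40.3%. Among 269 T cells with Cd8a but no Cd8b1, which the rule leaves out, 51.7% held Ccl5, 36.1% held Trdc and 14.9% held Dapl1. The rule therefore describes T cells with Cd8b1 RNA and passes over T cells with Cd8a alone, which had more Ccl5 and Trdc. Where a cell held 1 UMI of Cd8b1 and no Cd8a, its CD8 identity rests on 1 molecule, and the part of free RNA was not tested. At the CD3 threshold, 121 cells with exactly 2 CD3 and Trac UMIs held Ccl5 in 7.44% and Lef1 in 67.8%, and 81 cells with exactly 1 such UMI, outside the rule, held Ccl5 in 23.5% and Lef1 in 43.2%.

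Most Peyer's patch CD8 T cells had the transcripts of naive cells. On run dates 1 to 3, Lef1, a transcription factor of naive and memory precursor T cells, was found in 79.3% of CD8 T cells and Ccr7 in 65.2%. In B cells of the same dates Lef1 was found in 4.29%, and Ccr7, which B cells also use, in 30.3%. After thinning every cell to 1000 UMIs, which left out 8 CD8 T cells and 213 B cells of all 5 dates, Lef1 was found in 42.2% of CD8 T cells and 1.16% of B cells. By summed level in CD8 T cells Lef1 stood at 538 CPM and Ccr7 at 448 CPM, levels that the capture of each gene's 3′ end also shapes.

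Nkg7, a membrane protein of cytotoxic granules, did not follow the other cytotoxic genes. It was found in 69.7% of CD8 T cells of run dates 1 to 3 at 585 CPM, against 3.54% of CD4 T cells at 29.9 CPM and 3.79% of B cells at 13.9 CPM. Thinned to 1000 UMIs, Nkg7 was found in 39.4% of CD8 T cells, 1.88% of CD4 T cells and 1.88% of B cells. By contrast Ccl5 was found in 9.69% of CD8 T cells and 7.50% of B cells. Gzma, a granzyme, was found in 2.93% of CD8 T cells and 3.399% of B cells, so its share did not stand above B cells. The summed levels of both genes did stand above B cells, since the UMIs were gathered in few cells. Ccl5 reached 331 CPM in CD8 T cells and 60.3 CPM in B cells. Gzma reached 91.8 CPM in CD8 T cells and 22.1 CPM in B cells. Gzmk, another granzyme, was found in 0.935% of CD8 T cells and 0.0687% of B cells, and the perforin gene Prf1 in 1.36% of CD8 T cells and 0.172% of B cells.

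**Figure D1:**
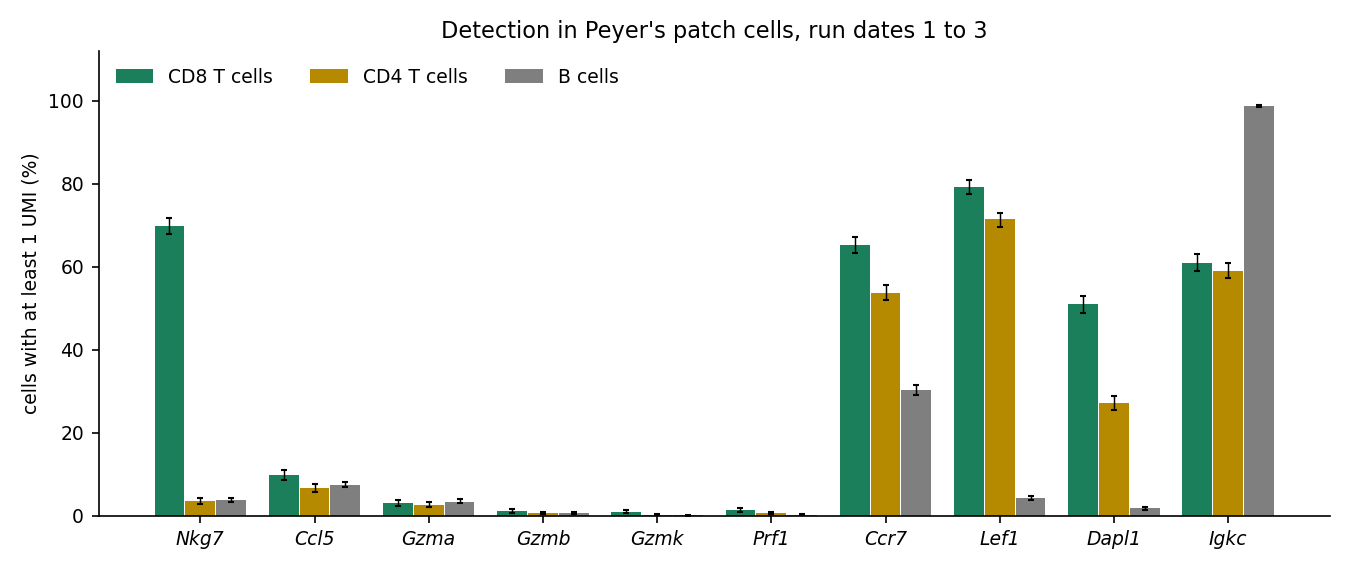
Share of cells with at least 1 UMI of a gene (%, vertical axis) in Peyer's patch CD8 T, CD4 T and B cells of run dates 1 to 3, with exact 95% binomial intervals that cover counting error only. Nkg7 stands at 69.7% in CD8 T cells and under 4% in the other cells. Gzma is as frequent in B cells as in CD8 T cells. Igkc, an antibody gene, reaches 61.0% of CD8 T cells, and the part of free RNA was not tested.

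Set against CD4 T cells of the same libraries, CD8 T cells differed in the genes below, given as a description since the rule separated these cells. Ly6c1 and Ly6c2, surface proteins of near-identical sequence whose counts may be shared, stood at 192 and 266 CPM in CD8 T cells and 11.1 and 19.7 CPM in CD4 T cells. Ccr9, the receptor that guides lymphocytes to the small intestine, stood at 110 CPM in CD8 T cells and 14.2 CPM in CD4 T cells. Klrd1, a killer lectin-like receptor, stood at 93.0 and 11.95 CPM, the granule protease Ctsw at 195 and 52.1 CPM, and Runx3, a transcription factor of the CD8 lineage, at 125 and 40.7 CPM in CD8 and in CD4 T cells. The plasma cell gene Jchain was higher as well, at 80.2 and 32.4 CPM. Among genes lower in CD8 T cells, the inhibitory receptor gene Pdcd1 stood at 9.22 and 115 CPM, Izumo1r at 60.9 and 446 CPM, Maf at 7.72 and 97.1 CPM and Cd40lg, the ligand that helps B cells, at 9.11 and 75.4 CPM in CD8 and in CD4 T cells. Of the naive genes, Lef1 stood at 530 and 535 CPM and Ccr7 at 445 and 403 CPM in CD8 and in CD4 T cells, whereas Igfbp4 stood at 401 CPM in CD8 T cells and 593 CPM in CD4 T cells.

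A class fixed as cytotoxic by at least 2 UMIs over Ccl5, Nkg7, Gzma, Gzmb, Gzmk and Prf1 held 1277 of the 2404 Peyer's patch cells, and a class fixed as naive by none of these 6 genes and at least 1 UMI over 5 naive genes, among them Ccr7, Lef1, Dapl1 and Igfbp4, held 635. The data went against the first name. In that class 99.1% of cells held Nkg7 but 17.3% held Ccl5 and 5.2% held Gzma, its median cell had 3 UMIs of Nkg7 and 0 of Ccl5, and the median over the 5 naive genes was 8 UMIs, against 5 in the other class. It is therefore called the Nkg7 class, and the other the Nkg7-free class. Depth differed between them, with a median of 3789 UMIs in the Nkg7 class and 2845 in the Nkg7-free class, and 471 cells with exactly 1 UMI of the 6 genes lay between them.

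Besides the genes of its rule, the Nkg7 class led over the Nkg7-free class by the chemokine Xcl1 (56.9 and 1.05 CPM), Ly6c1 (247 and 97.7 CPM), Ly6c2 (339 and 145 CPM), Ctsw (233 and 111 CPM) and Dapl1 (521 and 297 CPM). The genes lower in the Nkg7 class were of several kinds. The plasma cell gene Jchain stood at 33.1 CPM in the Nkg7 class and 240 CPM in the Nkg7-free class, Pdlim4 at 12.8 and 85.6 CPM, Tyrobp, an adaptor of innate cells, at 49.7 and 122 CPM, Irf8, a transcription factor of myeloid and B cells, at 32.7 and 80.3 CPM, and Izumo1r at 44.7 and 97.1 CPM. Of the naive genes, Dapl1 was thus higher in the Nkg7 class, whereas Ccr7 stood at 412 and 511 CPM, Lef1 at 502 and 576 CPM and Igfbp4 at 396 and 413 CPM in the Nkg7 and in the Nkg7-free class. Ly6c1, Ly6c2, Ctsw and Dapl1 were also higher, and Pdlim4 and Izumo1r also lower, in CD8 than in CD4 T cells. Jchain and Ccr7 went the other way. The median cell held 2 UMIs of Cd8a in the Nkg7 class and 0 in the Nkg7-free class, at the unequal depths given above. Whether the Nkg7-free class also holds other T cells was not tested.

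Leaving Nkg7 out of the rule gave a small class that carried effector genes. This choice was made after the values were seen, so the class is described with no test. At least 2 UMIs over Ccl5, Gzma, Gzmb, Gzmk and Prf1 were held by 120 Peyer's patch cells, called the Ccl5-granzyme class here, and 2006 held none of them with at least 1 naive UMI. A further 233 cells held exactly 1 such UMI, a number that free RNA can give, and 35 cells held exactly 2. On run dates 1 to 3 the class took 4.12% of CD8 T cells, while 1.61% of B cells met the same condition. In its median cell 10.5 UMIs of Ccl5 were counted, 62 of the 120 cells held 10 or more, and the highest cell held 327. On run dates 4 and 5, where T cells were few, the class took 45.1% of the 51 CD8 T cells, while 18.1% of 781 B cells met the condition, and Ccl5 stood at 10043 CPM in these CD8 T cells and 386 CPM in the B cells.

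The Ccl5-granzyme class was mixed. Ccl5 together with a granzyme or Prf1 was found in 42.5% of its cells and Ccl5 alone in 49.2%. Ccr7 was still found in 45.8% of its cells, against 66.7% of the 2006 cells without the 5 genes. A gamma or delta receptor constant gene was found in 31.7% of its cells and in 4.74% of the cells without the 5 genes. Outside the rule, Fcer1g and Tyrobp, adaptor proteins of natural killer and innate-like cells, stood at 252 and 364 CPM in the class and 10.6 and 43.4 CPM in cells without the 5 genes. Of the 120 cells 97 came from run dates 1 to 3, and Fcer1g also differed by date in B cells, at 33.3 CPM on run dates 1 to 3 and 225 CPM on run dates 4 and 5. Its part in the contrast was not tested. The chemokine gene Ccl4 stood at 428 CPM in the class and 24.5 CPM in the other cells, Xcl1 at 282 and 19.7 CPM, and the death ligand gene Fasl at 62.6 and 2.27 CPM. Genes lower in the class included Igfbp4 at 118 and 418 CPM, Actn1 at 56.9 and 164 CPM, S1pr1, the receptor for leaving lymphoid tissue, at 73.9 and 186 CPM, Ccr9 at 53.1 and 116 CPM, and also Npc2, a lysosomal lipid carrier, at 355 and 735 CPM and Jchain at 32.2 and 89.3 CPM in the class and in the other cells. Nkg7 stood at 1278 CPM in the class and 550.5 CPM in cells without the 5 genes, so these naive-type cells carried it too.

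The lamina propria held 69 CD8 T cells, 66 of them from the IgDLow libraries, 26 among 356 T cells of food allergy (7.30%) and 40 among 336 T cells of control (11.9%). The Ccl5-granzyme class took 29 of the 69. In the IgDLow libraries it took 5 of 26 CD8 T cells in food allergy (19.2%, exact 95% interval 6.55% to 39.4%) and 21 of 40 in control (52.5%, 36.1% to 68.5%). With 1 library per condition there is no test of this difference. Of 1693 B cells in these libraries 6.50% met the same condition, at a median of 7967 UMIs, against 39.4% of the 66 CD8 T cells at a median of 2788 UMIs.

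Cells of the Ccl5-granzyme class held more Ccl5 and granzyme RNA and less naive RNA in the lamina propria than in Peyer's patches. The Peyer's patch libraries were made on other run dates and without a named sort, so that tissue, sort and date cannot be told apart. Ccl5 and the granzymes also chose the class. Of its cells, 77 of 120 in Peyer's patches and 28 of 29 in the lamina propria held 4 or more UMIs of the 5 genes. The part of cells with free RNA alone in this contrast was not tested. Ccl5 stood at 33232 CPM in the lamina propria class and 8834 CPM in the Peyer's patch class, Gzma at 5521 and 1725 CPM, and Gzmb at 741 and 284 CPM. Of the 29 lamina propria cells 28 held 10 or more UMIs of Ccl5. Ccr7 stood at 13.5 CPM in the lamina propria class, against 275 CPM in the Peyer's patch class. Itgae, the integrin chain that holds lymphocytes at the epithelium, stood at 269 CPM in the lamina propria class and 34.1 CPM in the Peyer's patch class, and S100a4 at 229 and 17.1 CPM. Dapl1 and Igfbp4 had no UMI in the lamina propria class, against 256 and 118 CPM in the Peyer's patch class. Prf1 had none either, against 20.9 CPM, but the lamina propria class held only 74266 UMIs in all. At that total a gene at 20.9 CPM can have no UMI by counting alone. Antibody RNA in CD8 T cells also differed between these 2 sets of libraries. Igha, an antibody gene, was found in 100% of the lamina propria CD8 T cells of the IgDLow sort. In Peyer's patch CD8 T cells of run dates 1 to 3 it was found in 13.6%. The 37 lamina propria cells without the 5 genes had the naive transcripts, with Ccr7 at 672 CPM and Lef1 at 559 CPM.

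**Figure D2:**
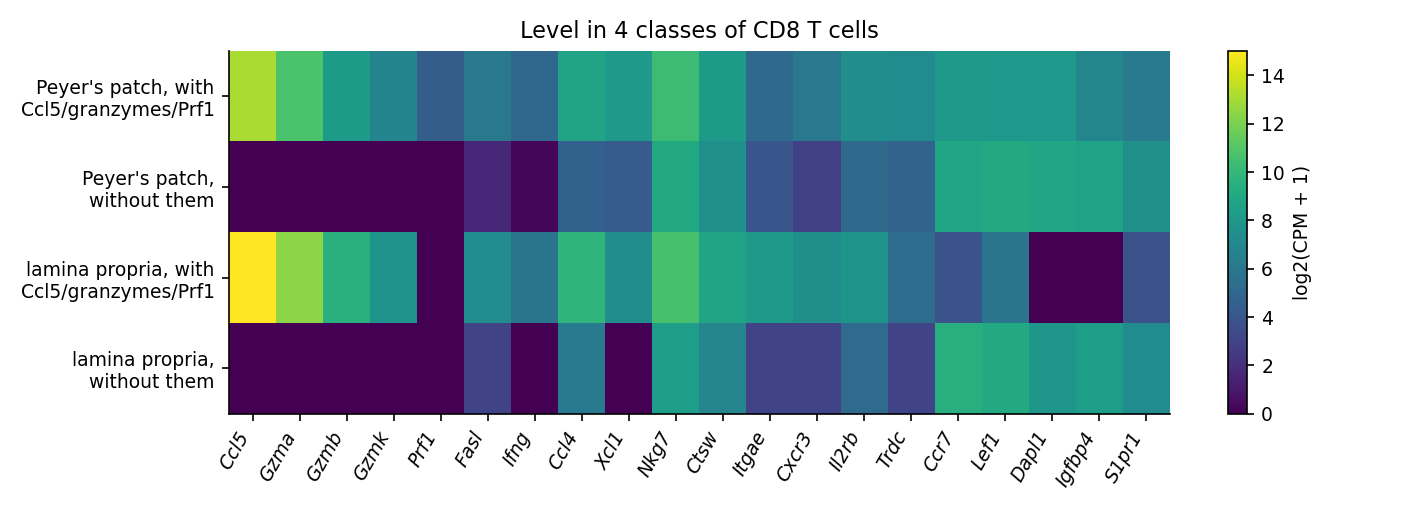
Level of 20 genes as log2(CPM + 1) of the summed cells (colour) in CD8 T cells with at least 2 UMIs of Ccl5, Gzma, Gzmb, Gzmk and Prf1 and in those without any of them, for 120 and 2006 Peyer's patch cells and 29 and 37 lamina propria cells. The first 5 genes chose the classes, Nkg7 is present in all 4 rows, and Dapl1 and Igfbp4 have no UMI in the lamina propria cells with the 5 genes.

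To ask whether food allergy changed the number of CD8 T cells, their share of T cells was compared within run date. On run date 1, food allergy had 351 CD8 T cells of 1659 T cells (21.2%) and control 890 of 4331 (20.5%). On run date 2, food allergy had 212 of 967 (21.9%) and control 393 of 1619 (24.3%), and on run date 3, food allergy had 362 of 1666 (21.7%) and control 145 of 611 (23.7%). On run dates 4 and 5, with few T cells, food allergy had 11 of 131 (8.40%) and 21 of 310 (6.77%), and control 4 of 78 (5.13%) and 15 of 170 (8.82%). The share averaged 16.0% ± 7.70 in food allergy and 16.5% ± 8.91 in control (SD, n = 5 run dates), a difference of -0.505 percentage points that was higher in food allergy on 2 of 5 dates. An exact two-sided permutation of condition within run date gave p = 0.625, and the smallest p that 5 dates allow is 0.0625. By position, with run dates 1 and 2 pooled, the share in control was 21.4% at D, 22.0% at I and 21.1% at J. In food allergy it was 21.5% at I and 22.0% at J. Position D of food allergy had 1 library, of run date 2 only, at 19.2%. The control library of that date and position stood at 24.4%.

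**Figure D3:**
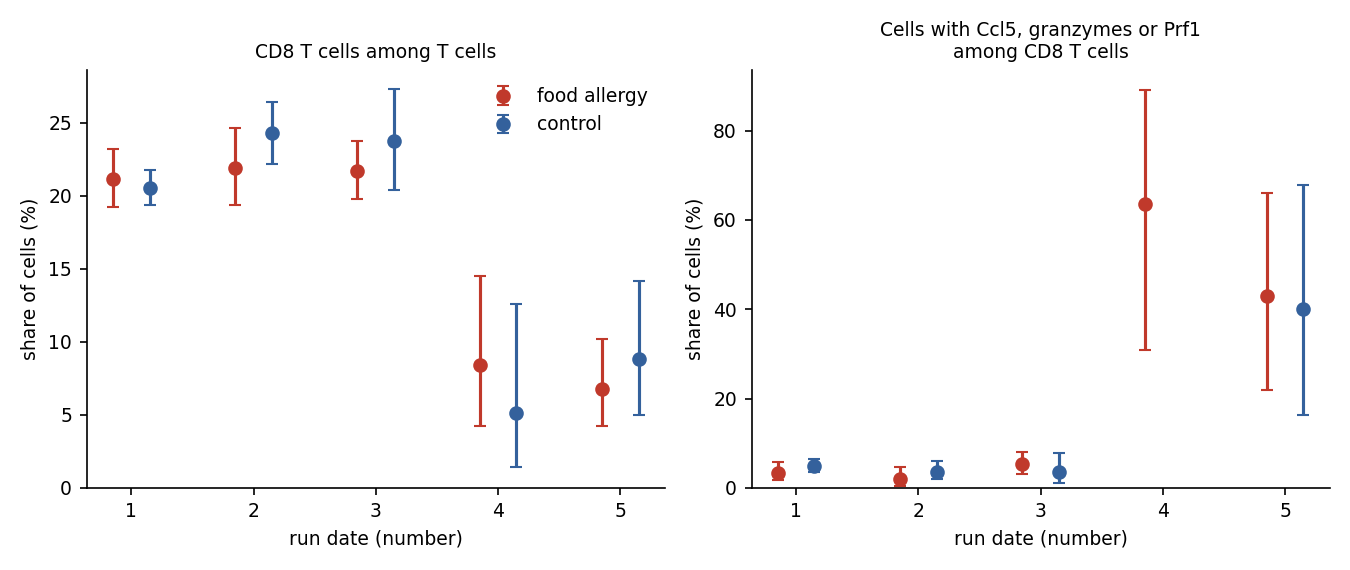
Share of CD8 T cells among T cells (left) and of the Ccl5-granzyme class among CD8 T cells (right), in % by run date, with food allergy left of control and exact 95% binomial intervals that cover counting error only; the control of run date 4, with 4 CD8 T cells, is left out on the right. CD8 T cells are 20.5% to 24.3% of T cells on run dates 1 to 3 and under 9% on run dates 4 and 5, where the class reaches 40.0% to 63.6%.

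The Nkg7 class took more of the CD8 T cells in food allergy on each of the 4 run dates with at least 10 CD8 T cells in both conditions, namely 53.8%, 54.7%, 60.2% and 81.0% in food allergy, against 50.1%, 47.3%, 57.2% and 66.7% in control, on run dates 1, 2, 3 and 5. Its share averaged 62.4% ± 12.7 in food allergy and 55.3% ± 8.63 in control (SD, n = 4 run dates). The Nkg7-free class averaged 18.7% ± 9.66 in food allergy and 27.3% ± 2.94 in control (SD, n = 4 run dates) and was lower in food allergy on all 4. The exact two-sided permutation p of 0.125 for each is the smallest that 4 dates allow, so the test could not pass 0.05. The differences were 7.10 and -8.64 percentage points, and 4.70 and -4.22 points without run date 5, which held 21 food allergy and 15 control CD8 T cells. The Ccl5-granzyme class took 3.42%, 1.89%, 5.25% and 42.9% in food allergy, against 4.83%, 3.56%, 3.45% and 40.0% in control, on the same dates, with no common direction. The CD8 T cells had median depths of 3073, 3882, 4330 and 3179 UMIs per cell in food allergy, against 2957, 3546, 4652 and 3913 UMIs in control. With each cell thinned to 1000 UMIs, the differences were 3.49 points for the Nkg7 class and -10.2 points for the Nkg7-free class.

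A short list of genes was higher in food allergy in the summed CD8 T cells of Peyer's patches, with the smallest adjusted p for Bcl2, an inhibitor of apoptosis, and no gene was called lower. UMIs were summed per run date and condition where both conditions had at least 10 cells, which gave 4 food allergy and 4 control sums on run dates 1, 2, 3 and 5. With run date in the model, edgeR's quasi-likelihood test with Benjamini-Hochberg adjustment at 0.05 called 7 of 6204 genes (0.113%), all higher in food allergy, while 248 genes had an unadjusted p below 0.05. They were Bcl2, Txnip, Tsc22d3, Pik3ip1, Il7r, Klhl6 and the mast cell protease gene Mcpt1. Over all tested genes the median log2 change was 0.00, and 3.8% of them were higher in food allergy on every date.

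Bcl2 (mm10 chromosome 1, 106538178 to 106714274, minus strand) stood at 837, 1040, 1143 and 673 CPM in food allergy, against 495, 607, 739 and 439 CPM in control, on run dates 1, 2, 3 and 5. Every date was higher in food allergy, though the lowest food allergy sum lay below the highest control sum. The log2 change was 0.75 ± 0.10 (SE), with an adjusted p of 0.00022 by edgeR's quasi-likelihood test. In single libraries Bcl2 ranged from 604 to 1193 CPM with a median of 849 CPM in 9 food allergy libraries, and from 278 to 745 CPM with a median of 548 CPM in 8 control libraries with at least 10 CD8 T cells. Of the food allergy libraries 7 lay above every control library. B cells of the same sums had 160, 87.9, 105 and 62.6 CPM of Bcl2 in food allergy and 52.5, 88.8, 114 and 85.3 CPM in control.

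Il7r (chromosome 15, 9505788 to 9530176, minus strand), the alpha chain of the IL-7 receptor on which naive T cells depend, stood at 241, 152, 178 and 229 CPM in food allergy and 120, 103, 92.0 and 283 CPM in control. It was higher in food allergy on run dates 1 to 3 and lower on run date 5, where the sums held 21 and 15 cells. The log2 change was 0.78 ± 0.15 (SE, edgeR adjusted p = 0.0235). DESeq2 gave a log2 change of 0.72 and did not call Il7r.

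Txnip (chromosome 3, 96557957 to 96561883, plus strand), which restrains glucose uptake and thioredoxin, stood at 283, 316, 267 and 229 CPM in food allergy, against 147, 145, 180 and 127 CPM in control. The groups did not overlap, as was the case for 1.85% of all tested genes. Its log2 change was 0.93 ± 0.13 (SE, edgeR adjusted p = 0.000284), and single libraries ranged from 69.4 to 352 CPM with a median of 291 CPM in 9 food allergy libraries, and from 118 to 195 CPM with a median of 157 CPM in 8 control libraries. Of the food allergy libraries 7 lay above every control library, while the lowest lay below all of them. Tsc22d3 (chromosome X, 140539528 to 140600659, minus strand), a glucocorticoid-induced regulator, stood at 622, 569, 607 and 390 CPM in food allergy and 297, 241, 339 and 382 CPM in control, with a log2 change of 0.96 ± 0.14 (SE, edgeR adjusted p = 0.00388). The gap was wide on run dates 1 to 3 and narrow on run date 5. B cells of the same sums had 383, 353, 423 and 295 CPM of Tsc22d3 in food allergy and 118, 134, 356 and 289 CPM in control, so it was higher there too on these dates.

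Pik3ip1 (chromosome 11, 3330401 to 3342971, plus strand), an inhibitor of PI3 kinase signalling, stood at 279, 237, 181 and 202 CPM in food allergy and 188, 135, 115 and 84.9 CPM in control, with a log2 change of 0.75 ± 0.13 (SE, edgeR adjusted p = 0.00388). Klhl6 (chromosome 16, 19946496 to 19983037, minus strand), a Kelch-like adaptor known from B cells, stood at 126, 96.9, 98.7 and 108 CPM in food allergy and 71.1, 70.2, 56.9 and 70.8 CPM in control, without overlap (log2 change 0.74 ± 0.15 SE, edgeR adjusted p = 0.0235). Pdcd4, an inhibitor of translation initiation, was higher on every date, at 325, 394, 371 and 498 CPM in food allergy and 229, 275, 298 and 212 CPM in control, but did not pass the test (log2 change 0.58 ± 0.12 SE, edgeR adjusted p = 0.0567). It is named because it passed in the Nkg7 class.

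Mcpt1 came from few molecules. It had 0, 17, 20 and 4 UMIs in food allergy and 0, 0, 0 and 1 UMI in control, a ratio of 56.1 over the summed UMIs with a counting interval of 9.52 to 2268. Of CD8 T cells on run dates 1 to 3, 1.36% held it, and of B cells 2.42%. The part of free RNA in these counts was not tested. In B cells of the same sums Mcpt1 stood at 0, 17.2, 10.4 and 757 CPM in food allergy and 0.173, 0.154, 0 and 3.47 CPM in control. Of the other mast cell markers Tpsb2 and Tpsab1 had no UMI in the CD8 T cells, and the 7 markers summed to 0 to 121 CPM in food allergy and 0 to 42.5 CPM in control.

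**Figure D4:**
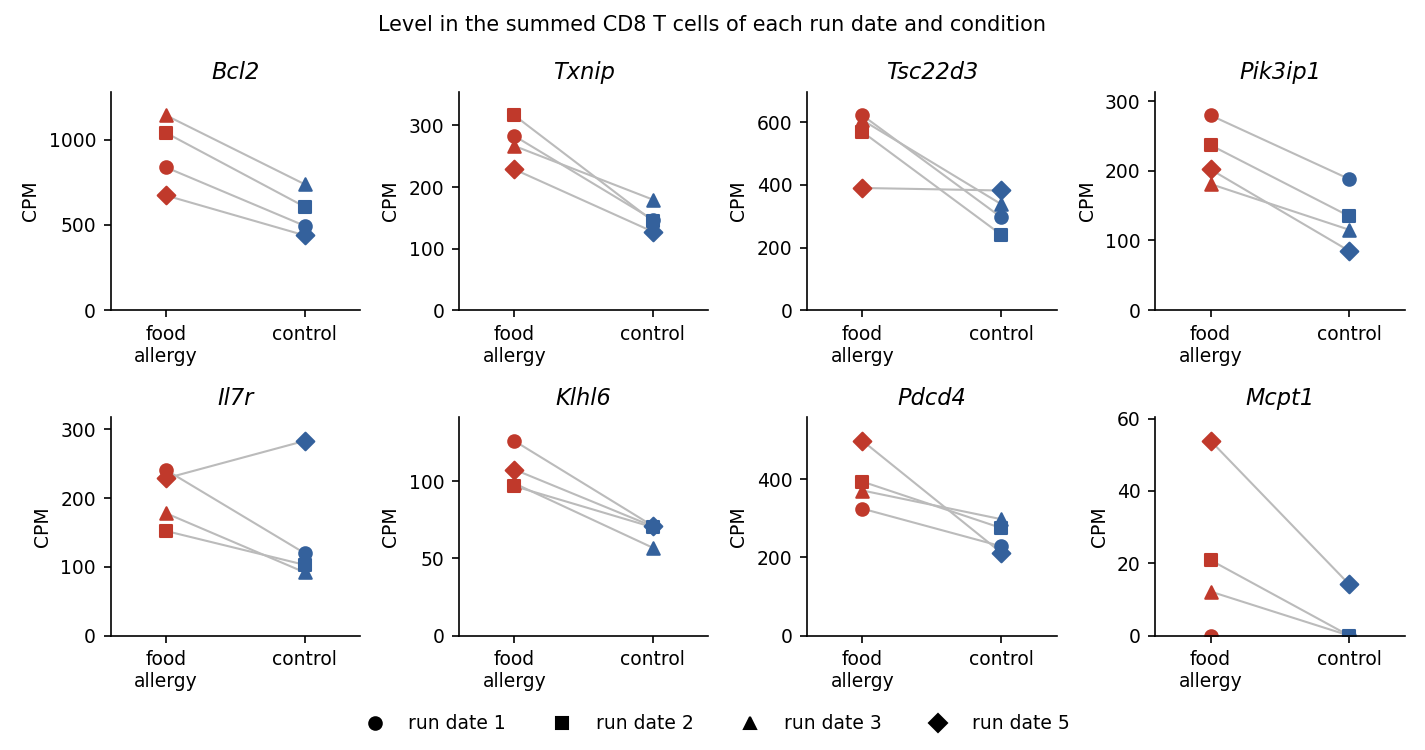
CPM of 8 genes (vertical axes, from 0) in the summed CD8 T cells of each run date, food allergy left and control right, with grey lines joining the sums of a date. The first 7 genes are higher in food allergy on every date except Il7r on run date 5, and Mcpt1 is at 0 on run date 1 in both conditions.

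Which calls stood depended on the run dates. Bcl2 was called on leaving out any of the 4 dates. Of the 7, Bcl2 and Mcpt1 were called without run date 1, and Bcl2 alone without run date 2. Without run date 3, Bcl2, Tsc22d3 and Txnip were called, and without run date 5 all but Klhl6 and Mcpt1. The log2 changes of the 6 genes other than Mcpt1 stayed between 0.63 and 1.09 in these fits. Leaving out position D of run date 1, an alternative added after the data were seen, kept all 7 and added Pdcd4 and Bbc3.

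The fixed lists showed little else. Of 15 genes of naive and recirculating T cells, all tested, 1 rose (Il7r), none fell, and the median log2 change was -0.04. Lef1 averaged 450 ± 167 CPM in food allergy and 459 ± 162 CPM in control (SD, n = 4 each). Of 15 cytotoxic and effector genes 8 could be tested and none passed, with a median of 0.14. Nkg7 averaged 882 ± 537 CPM in food allergy and 719 ± 375 CPM in control (SD, n = 4 each) and was higher on all 4 dates, but did not pass (log2 change 0.30 ± 0.10 SE, edgeR adjusted p = 0.756). Gzmb, another granzyme, stood at 1.80, 2.45, 65.2 and 242 CPM in food allergy and 4.62, 11.4, 4.38 and 28.3 CPM in control on run dates 1, 2, 3 and 5, and did not pass either (log2 change 1.35 ± 1.116 SE, edgeR adjusted p = 0.999987).

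Among 12 genes of the response to IL-4 and related cytokines, 10 were tested and Bcl2 alone rose (median 0.03). Of 13 tested cytokine receptor genes Il7r alone rose (median 0.01). None passed among 19 tested interferon response genes (median -0.04), 14 gut homing genes (median 0.02), 13 memory and activation genes (median -0.05) or 9 cell cycle genes (median -0.02). Immediate early and activation genes were at a median log2 change of -0.58, with 1 of the 18 tested above 0 and the lowest at -1.02, and none passed. The gene above 0 was Dusp2, a phosphatase of MAP kinases, at a log2 change of 0.50 (edgeR adjusted p = 0.33).

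The markers of B, plasma, gamma delta T, natural killer and myeloid cells held no gene that passed the test. The 14 B cell markers summed to 387 to 1370 CPM in food allergy and 1040 to 10077 CPM in control, and the 8 tested had a median log2 change of -0.76 with all 8 below 0. The 10 markers of gamma delta T and natural killer cells summed to 41.5 to 1386 CPM in food allergy and 50.4 to 2576 CPM in control, with Trdv4 and Klra8 at 0 and a median log2 change of 0.01 over 6 tested. The 10 RNAs that mark RNA quality summed to 39960 to 54553 CPM in food allergy and 39793 to 50245 CPM in control. Their part in the changes above was not tested.

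In the Nkg7 class 7 of 4575 genes (0.153%) rose and none fell, by the same edgeR test over run dates 1, 2, 3 and 5. They were the 6 genes above other than Mcpt1, and Pdcd4. Tsc22d3 stood at 513, 624, 550 and 260 CPM in food allergy and 279, 195, 351 and 144 CPM in control (log2 change 1.09 ± 0.16 SE, edgeR adjusted p = 0.0038). Il7r stood at 244, 157, 165 and 214 CPM in food allergy and 111, 79.8, 91.3 and 215 CPM in control (log2 change 0.98 ± 0.15 SE, edgeR adjusted p = 0.0026). Pdcd4 (chromosome 19, 53892231 to 53929860, plus strand) stood at 322, 401, 384 and 505 CPM in food allergy, against 222, 267, 295 and 263 CPM in control (log2 change 0.60 ± 0.13 SE, edgeR adjusted p = 0.031). Without run date 2 none of the 7 was called, without run date 1 Pik3ip1 and Tsc22d3 were, without run date 5 all but Tsc22d3, and without run date 3 the count over all genes was 41, with 6 of the 7 among them.

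In the Nkg7-free class, over run dates 1 to 3, 5 of 2781 genes passed (0.18%), 2 of them higher (0.0719%) and 3 lower (0.108%) in food allergy. Tsc22d3 stood at 837, 552 and 747 CPM in food allergy and 296, 319 and 357 CPM in control (log2 change 1.14 ± 0.17 SE, edgeR adjusted p = 0.0024), and Txnip at 327, 334 and 348 CPM and at 168, 154 and 236 CPM (log2 change 0.90 ± 0.18 SE, edgeR adjusted p = 0.0403). The 3 lower genes were Ly6c1, Ly6c2 and Plac8, each lower on all 3 dates. Ly6c2 (chromosome 15, 75108158 to 75111970, minus strand) stood at 58.4, 36.3 and 116 CPM in food allergy and 126, 94.7 and 380 CPM in control, with a log2 change of -1.45 ± 0.26 (SE, edgeR adjusted p = 0.0119). The groups overlapped, since both conditions were highest on run date 3. Ly6c1 changed by -1.70 ± 0.32 and Plac8 by -1.92 ± 0.33 on the log2 scale (SE, edgeR adjusted p = 0.0212 and 0.0104). With Cd8b1 at 2 UMIs or more, Ly6c1 changed by -0.57 and Ly6c2 by -0.30. With a Cd8a UMI required, Ly6c1 changed by -2.16 and Ly6c2 by -1.90. Neither gene was called in either setting. All 3 genes stood higher in CD8 than in CD4 T cells. In the same class the 7 tested B cell markers were all below 0 with a median log2 change of -0.85, the 4 tested plasma cell markers all below 0 with a median of -1.15, and Tyrobp at -1.23, none passing. The 14 B cell markers summed to 378 to 1467 CPM in food allergy and 1322 to 2901 CPM in control. Their part in the changes was not tested. Without run date 2 none of the 5 was called, without run date 1 Ly6c1 and Ly6c2 were, and without run date 3 the count over all genes was 47, with Tsc22d3 and Txnip of the 5 among them. The 2006 cells with a naive UMI but without Ccl5, granzymes and Prf1 were taken whether or not they held Nkg7. Those of run dates 1 to 3 were fitted in the same way. In them Ly6c2 changed by -0.03 and Ly6c1 by 0.02, and neither was among the 11 of 6549 genes called (0.168%).

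The difference of the changes between the Nkg7 and the Nkg7-free class was tested directly over run dates 1 to 3. It passed for 1 of 4679 genes (0.0214%), Ly6c2, with a difference of 1.47 ± 0.26 on the log2 scale (SE, edgeR adjusted p = 0.0308). Ly6c2 was no longer called without run date 1 or without run date 3, and it was without run date 2. This difference was not fitted with Cd8b1 at 2 UMIs or more. Ly6c2 stood at 349, 293 and 372 CPM in food allergy and 305, 419 and 302 CPM in control in the Nkg7 class. For Bcl2, Txnip, Tsc22d3, Pik3ip1, Il7r and Klhl6 the difference lay between -0.06 and 0.32 with SE of 0.16 to 0.35, and none passed.

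CD4 T cells of the same libraries gave a list that can be set beside that of CD8 T cells, though both are sums over the same libraries and so share what those libraries share. Over run dates 1 to 3 the edgeR test called 21 of 7395 genes in CD4 T cells (0.284%), 17 higher (0.23%) and 4 lower (0.0541%) in food allergy. Bcl2 stood at 923, 861 and 914 CPM in food allergy and 511, 419 and 578 CPM in control in CD4 T cells (log2 change 0.92 ± 0.09 SE). Txnip changed by 1.22 ± 0.15, Tsc22d3 by 1.11 ± 0.11, Il7r by 1.00 ± 0.13 and Pik3ip1 by 0.83 ± 0.11 there on the log2 scale (SE), and all of these passed. Klhl6 was not called in CD4 T cells (0.42 ± 0.14 SE, edgeR adjusted p = 0.369). The CD4 count was 9 without run date 1, 0 without run date 2 (391 genes had an unadjusted p below 0.05) and 77 without run date 3.

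The CD8 change minus the CD4 change was tested for 7927 genes, none passed in edgeR's quasi-likelihood test, and 220 had an unadjusted p below 0.05, with no other tool run. The differences were -0.15 ± 0.12 for Bcl2, -0.29 ± 0.20 for Txnip, -0.01 ± 0.15 for Tsc22d3, -0.10 ± 0.15 for Pik3ip1, -0.11 ± 0.18 for Il7r and 0.33 ± 0.19 for Klhl6 on the log2 scale (SE). A p that misses the threshold does not show that the changes were alike.

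**Figure D5:**
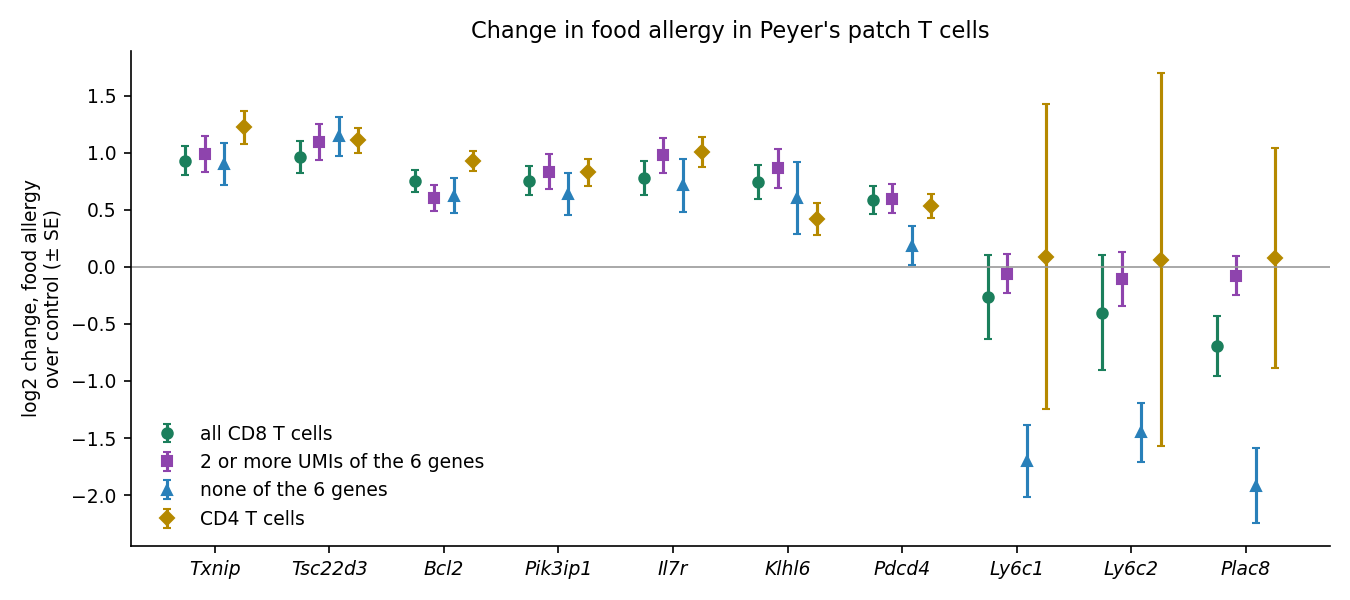
Log2 change of 10 genes in food allergy over control, with SE, in all CD8 T cells, the Nkg7 class (2 or more UMIs of the 6 genes), the Nkg7-free class (none of them) and CD4 T cells of Peyer's patches. The first 6 genes lie between 0.42 and 1.22 in all 4 sets of cells, and Ly6c1, Ly6c2 and Plac8 lie at -1.45 or below in the Nkg7-free class.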

How the data were processed

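The deposited matrix held raw UMI counts per gene and cell, 58067 cells and 19221 genes, which the authors made from 3′ droplet libraries. Per the submitters' processing notes the series used bcl2fastq, Bowtie2, RSEM, Cell Ranger and build mm10, with versions not given in the sources used here. No cell held under 501 UMIs and none over 13.4% mitochondrial UMIs. A Peyer's patch library of the allergy group (run date 1, position D) and the bulk libraries were not analysed here. The members, classes and gene lists were chosen with earlier results of these data known.

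UMIs of Peyer's patch cells were summed per run date and condition with at least 10 cells. Genes kept by filterByExpr were scaled by TMM factors. The quasi-likelihood test of edgeR (version 4.0.16 in R 4.3.3) had run date as covariate and Benjamini-Hochberg adjustment at 0.05. CPM divide by the sum's total UMIs. Run dates pair food allergy with control, as the labels give a shared date. Shares were compared by exact permutation within run date, with exact binomial intervals at 95% (SciPy 1.17.1), which cover counting error only. Doublets were simulated within libraries (scanpy 1.11.5) at 0.8% per 1000 cells, marking 1170 cells (2.01%), and kept except in an alternative. Leading genes between classes use a pseudocount of 10 CPM and a minimum of 50 CPM.

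On simulated data with 100 genes changed 2-fold and 100 changed 3-fold, the fit of all CD8 T cells recovered 66% and 88% of them with 4 false calls. The fit of the Nkg7 class recovered 63% and 82%, and that of the Nkg7-free class 50% and 83%. These counts were drawn with the same spread for every gene and no run date effect. The shares recovered therefore do not give the power of the real fits. Named genes are up to 12 each way past 0.05 with at least 20 CPM and 1 direction on every date, list genes past 0.05, the naive and cytotoxic lists, and leading genes. Il7r is a list gene. Mcpt1 is also a list gene. Bbc3, and the genes set between CD8 and CD4 T cells or around the Ccl5-granzyme class, were named after their values were seen. Gene positions are from GENCODE M21. Alternatives were another scaling, DESeq2 1.42.0, no filter on low counts, no block, libraries as units, other cell filters and rules, and leaving out each run date. Some genes are not reported here.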

Additional observations from a re-analysis of the deposited data

Results flagged for a closer look

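Among 34 groups of sums or libraries of 4 to 10 members, 6 held a member whose distance from its nearest neighbour was large for the group's range, where chance gives about 1 in 20. Of these, 3 were shares in the same control library of run date 5, library 10, which held 10 CD8 T cells. CD8 T cells were 10.8% of its T cells, the Nkg7 class 80.0% and the Nkg7-free class 10.0% of its CD8 T cells. It was the only control library of run dates 4 and 5 in its group, since the others held 4 and 5 CD8 T cells. In the food allergy libraries of these dates CD8 T cells were 6.67% to 8.40% of T cells. The remaining 3 were control sums of all CD8 T cells, namely Il7r on run date 5 at 283 CPM, above the other control sums, Klhl6 on run date 3 at 56.9 CPM, below them, and Mcpt1 on run date 5 at 14.2 CPM, which is 1 UMI. The change of Ly6c2 differed between the Nkg7 and the Nkg7-free class by 1.47 on the log2 scale in the test of the difference itself.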

How the results depend on the processing

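For all CD8 T cells, against 7 calls, DESeq2 gave 3, no filter on low counts 25, libraries as units 13 and Cd8b1 at 2 UMIs or more 4. Bcl2, Pik3ip1 and Txnip were called by DESeq2, and Il7r, Tsc22d3, Klhl6 and Mcpt1 were not. With Cd8b1 at 2 UMIs or more, the calls were Bcl2, Klhl6, Pik3ip1 and Txnip. Leaving out each run date in turn gave 3 to 7 calls. For the Nkg7-free class, against 5 calls, DESeq2 gave 0 (107 genes were at an unadjusted p below 0.05 in edgeR), no filter 8, Cd8b1 at 2 UMIs or more 1, position D of run date 1 left out 2, and the class redefined without Nkg7 11, where Ly6c1 turned to 0.0184 on the log2 scale. Leaving out each date gave 0 to 47. For the Nkg7 class, against 7 calls, DESeq2 gave 1 (Il7r), no filter 12, libraries as units 12, Cd8b1 at 2 UMIs or more 3 and a Cd8a UMI required 2 (Bcl2 and Il7r), and leaving out each date 0 to 41. The test of the difference between the classes, against 1 call, gave 3 with no filter and 0 to 2 on leaving out each date. That between CD8 and CD4 T cells, against 0 calls, gave 5 with no filter and 0 to 1. Without run date as a block, pairing food allergy with control, the counts were 0 for all CD8 T cells, 1 for the Nkg7-free class, 0 for the Nkg7 class and 0 for both tests of a difference. For CD4 T cells, against 21 calls, DESeq2 gave 2, no filter 71, no block 0 and leaving out each date 0 to 77. Bcl2 in all CD8 T cells was called under every alternative run except that without the block. Permuting libraries within run date gave -4.22 percentage points for the Nkg7-free share (permutation p = 0.0342) and 3.37 points for the Nkg7 share (permutation p = 0.666). Requiring a Cd8a UMI gave -2.25 and 3.405 points for these shares, against -8.64 and 7.10, and turned the CD8 share of T cells to 0.0112 points. The causes were not tested. The Nkg7 class redefined without Nkg7 could not be fitted. Few run dates, and few CD8 T cells on run dates 4 and 5, limit all comparisons. The position D and redefined-class alternatives were chosen after seeing the data.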
